A study of Saccharomyces cerevisiae with 15 samples.

Results

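RNA polymerase I and RNA polymerase III are the enzymes that transcribe the RNA parts of the ribosome and the transfer RNAs, and their messages were followed here in yeast that lacked or overproduced the H3K4 methyltransferase Set1, or lacked the H3K4 demethylase Jhd2. The set holds 36 listed genes of *Saccharomyces cerevisiae*, found by symbol among the 5712 features of the sense-strand count table, and all 36 were present and tested. Of these, 15 serve polymerase I alone, 19 serve polymerase III alone, and *RPC19* and *RPC40* serve both. The list was drawn up by function, with earlier results of these data known.

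Polymerase I has a single task, the transcription of the large ribosomal RNA precursor from the tandem rDNA repeats, which it starts with the help of Rrn3, the core factor and the upstream activating factor. Polymerase III makes the transfer RNAs, the 5S ribosomal RNA, the U6 RNA and a few other short RNAs, from promoters read by TFIIIC and then TFIIIB, and Maf1 shuts it down under poor conditions. The genes for both machines are themselves transcribed by polymerase II, and many belong to the ribosome biogenesis regulon, whose promoters carry the PAC element (polymerase A and C, older names of the enzymes) and the ribosomal RNA processing element (RRPE).

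Stranded RNA-seq was performed on 5 strains, each grown as 3 independent cultures to mid-log phase in rich glucose medium. The control (WT) was a *Mat a* strain that lacks both chromosomal histone H2A-H2B gene pairs (hta1-htb1 and hta2-htb2), lives on *HTA1-HTB1* from a *HIS3* centromeric plasmid and also carries the lys2-128delta, his3 and ura3-52 alleles. Every other strain shared this background. *jhd2Δ* and *set1Δ* had the respective gene replaced by KanMX, Flag-*SET1* carried Flag-tagged *SET1* driven by the *ADH1* promoter and marked with *URA3*, and Flag-*SET1-G990E* carried the same construct with a substitution described by the authors as hyperactive. No deletion of the native *SET1* was listed in either overexpression genotype, and both were the strains with *URA3*. Each genotype was 1 strain, so the 3 cultures measured the spread between cultures and not between independent isolates. Ribosomal RNA was removed before sequencing, so the main product of polymerase I was not measured.

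Each library held 6903094 to 8947346 sense counts, and antisense counts were far fewer (72664 to 106762). *SET1* had 822 to 908 counts in WT, 33 to 46 in *set1Δ*, 35966 to 42631 in Flag-*SET1* and 40284 to 42512 in Flag-*SET1-G990E*, and *JHD2* fell from 169 to 198 counts in WT to between 0 and 2 in *jhd2Δ*. The MATa markers *STE2*, *MFA1*, *MFA2* and *BAR1* summed to 8200 to 8669 normalized counts in WT libraries, 5709 to 6026 in *set1Δ* and 6778 to 9347 in the other mutants, and the 3 MATalpha markers to 84.8 to 106.6 in WT, 116 to 139 in *set1Δ* and 59.4 to 109 in the others. In *set1Δ*, *STE2* (-0.68) and *BAR1* (-0.60) fell and the alpha-factor genes *MF(ALPHA)1* (1.58) and *MF(ALPHA)2* (1.13) rose, while *MFA1*, *MFA2* and *STE3* were not called. The deleted *HTA2* and *HTB2* kept 39 to 119 counts per library, which cannot be told apart from reads of the near-identical plasmid-borne genes. No 2 cultures of a strain agreed within sampling noise.

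In WT, the genes of the polymerase I enzyme and of the subunits used by both enzymes were the more abundant at the RNA level, and those of the polymerase I factors were the scarcer. Levels were compared between genes as normalized counts per kilobase of gene length in WT. The 7 polymerase I subunits ran from 617 (*RPA12*) to 2041 (*RPA190*) with a median of 1157, against a median of 383 over all 5619 features tested. The 10 polymerase III subunits ran from 182 (*RPC17*) to 616 (*RPC34*), the 6 TFIIIC genes from 130.1 to 437, and the 8 polymerase I factors from 45.0 (*RRN11*) to 304 (*RRN9*). *RRN11* was thus the lowest of the 36 in WT. The cultures of a strain were close to each other, with a median coefficient of variation over the 36 genes of 4.85% to 8.48% by strain.

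The promoters of the subunit genes held the PAC element more often than promoters at large, whereas those of the polymerase III factors did not. The 250 bases before each start codon were read from the RefSeq R64 genome and searched on both strands for the PAC core GATGAG, its longer form GCGATGAG, which contains the core, and the RRPE core AAAATTTT. PAC was found before 22 of the 36 genes (61.1%), against 924 of 5585 promoters searched (16.5%). It was present before 6 of 7 polymerase I subunit genes, 8 of 10 polymerase III subunit genes, 5 of 8 polymerase I factor genes and 1 of the 9 genes for TFIIIC, TFIIIB and Maf1 (*TFC6*). The longer form stood before 6 of 36 genes (16.7%; 4.12% of all promoters) and the RRPE core before 14 (38.9%; 8.99% of all), none of these 14 being a TFIIIC, TFIIIB or *MAF1* gene. All 14 promoters with the RRPE core also had PAC.

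The following stretches of 30 bases show PAC in 6 promoters, written 5′ to 3′ on the strand of the gene with the match in capitals (sacCer3). They were chosen to show the strongest responder, *RRN11*, with overlapping repeats of the reverse complement, the longer form in *RPC19* and *RPC82*, which responded in every strain, PAC close to an RRPE core in *RPA34* and *RPC25*, and the lone match of TFIIIC.
RRN11 (chrXIII:191934-191963, minus strand): taaacatctcatCTCATCtcatctcagatg
RPC19 (chrXIV:412631-412660, plus strand): aatattcacctGCGATGAGctggaaaaaaa
RPC82 (chrXVI:919145-919174, minus strand): tttttcaaaagCTCATCGCattgaaggaaa
RPC25 (chrXI:176657-176686, minus strand): ttcaggcgatgCTCATCGCttaaaattttt
RPA34 (chrX:140315-140344, plus strand): aaaaattttatcGATGAGcattgaatagct
TFC6 (chrIV:1198823-1198852, minus strand): cgagaaagcctgGATGAGttgttaaagctt
The *RRN11* stretch held 3 matches starting 189, 184 and 179 bases before the start codon, of which the middle match is in capitals. In *RPC19* and *RPC82* the match began 129 and 122 bases before the start codon, and in *RPC25* and *RPA34* it lay 194 and 110 bases before it.

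**Figure D1:**
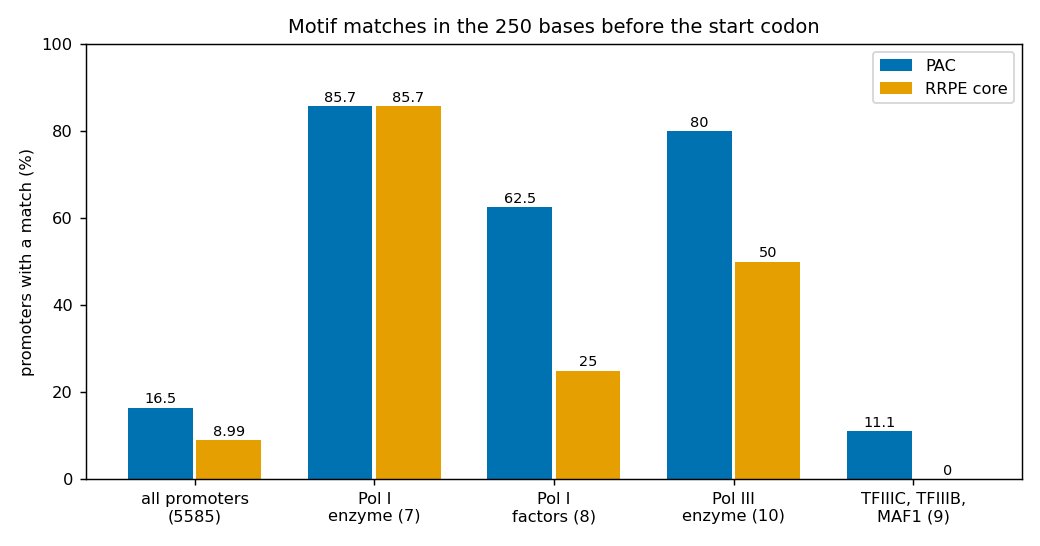
Share of promoters (%) with a match to PAC (GATGAG) or the RRPE core (AAAATTTT) on either strand in the 250 bases before the start codon, for all 5585 promoters searched and for 4 groups of the genes. PAC stood before 85.7% of polymerase I subunit genes and 80% of polymerase III subunit genes, against 16.5% of all promoters and 11.1% of the TFIIIC, TFIIIB and *MAF1* genes.

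Between 6 and 13 of the 36 genes rose on the sense strand in each of the 4 mutant strains, and no member fell past the threshold in any of them. A gene was called changed at a Benjamini-Hochberg adjusted p under 0.05 over all features tested, by edgeR's quasi-likelihood test, with a change of at least 1.5-fold. In *jhd2Δ*, 11 of 36 genes rose (30.6%, with 6.94% of all features tested called up), and 0 fell (5.27% of all features called down). In *set1Δ*, 6 rose (16.7%, against 5.87%) and 0 fell (2.71%), in the strain whose mating-type markers also moved, and the part of those in this count was not tested. In Flag-*SET1*, 8 rose (22.2%, against 3.81%) and 0 fell (3.88%), and in Flag-*SET1-G990E*, 13 rose (36.1%, against 6.66%) and 0 fell (5.32%). The 4 comparisons share the same WT cultures and are not independent of each other. At an unadjusted p under 0.05, 3, 2, 2 and 2 members were lower in the 4 strains in the same order (27.0%, 24.2%, 21.4% and 26.3% of all features were), and DESeq2 also called 0 lower.

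Many further members moved by less than the fold threshold. With the adjusted p alone, 26 members were higher in *jhd2Δ* (72.2%, against 21.5% of all features), 20 in *set1Δ* (55.6%, against 22.1%), 21 in Flag-*SET1* (58.3%, against 18.0%) and 26 in Flag-*SET1-G990E* (72.2%, against 22.2%). The median log2 change of the 36 genes was 0.38, 0.28, 0.26 and 0.46 in these strains, while that of all features lay between -0.01 and 0.00. A test of the 1.5-fold bound itself (edgeR's glmTreat) called fewer members, 6 in *jhd2Δ*, 1 in *set1Δ*, 2 in Flag-*SET1* and 5 in Flag-*SET1-G990E*, and *RRN11* was called in each.

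**Figure D2:**
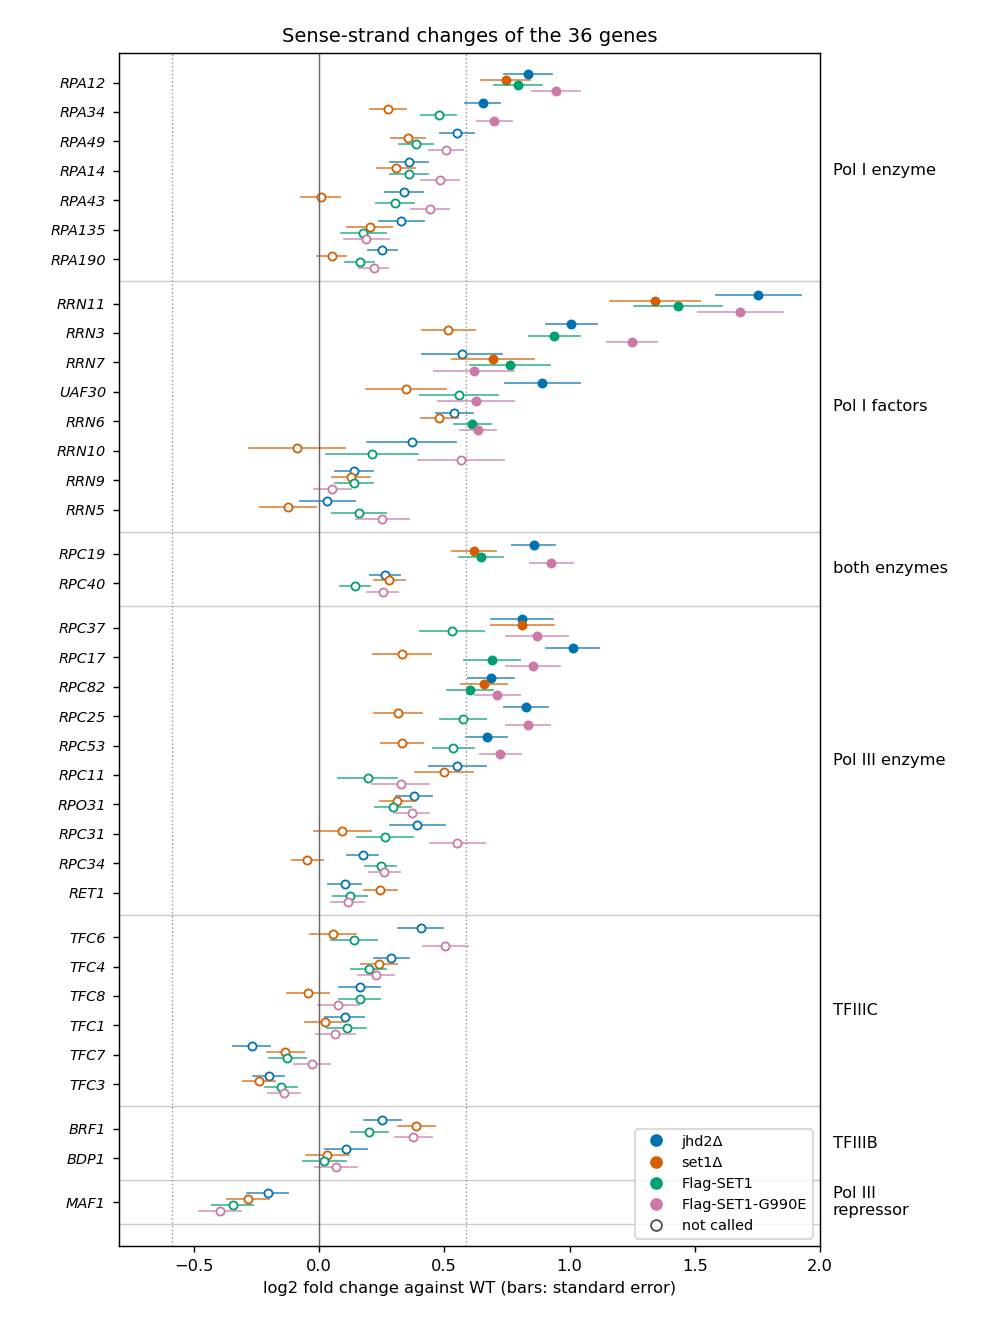
Log2 fold change of each of the 36 genes against WT in *jhd2Δ* (blue), *set1Δ* (orange), Flag-*SET1* (green) and Flag-*SET1-G990E* (pink), grouped by role; bars are standard errors, filled points are called changed, and dotted lines mark 1.5-fold either way. *RRN11* lies farthest to the right in all 4 strains, between 1.34 and 1.75, and no TFIIIC, TFIIIB or *MAF1* point is filled.

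*RPA12*, *RRN11*, *RPC19* and *RPC82* rose in every mutant strain, 4 members rose in 3 strains, 5 rose in 2 strains, and 23 were called in none. The share of all features that rose in several strains was not counted. Since the mutants were compared with the same WT cultures, a rise in several strains is not independent support.

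Of the polymerase I enzyme, *RPA12* changed most, and the large catalytic subunit genes stayed between 0.05 and 0.33 on the log2 scale. *RPA12* encodes the small subunit that helps the enzyme trim its transcript. Its normalized counts were 220.4, 239.6 and 239.7 in WT, 444, 386 and 419 in *jhd2Δ*, 383, 354 and 436 in *set1Δ*, 355, 426 and 434 in Flag-*SET1* and 473, 421 and 456 in Flag-*SET1-G990E*. Every mutant library lay above every WT library, and the mutant strains overlapped each other. The log2 change was 0.83 ± 0.096 (SE; adjusted p = 1.1e-06) in *jhd2Δ*, 0.74 ± 0.097 (adjusted p = 1.1e-05) in *set1Δ*, 0.80 ± 0.097 (adjusted p = 4.3e-06) in Flag-*SET1* and 0.95 ± 0.095 (adjusted p = 2.4e-07) in Flag-*SET1-G990E*. *RPA12* rose without a PAC or RRPE match in its searched promoter.

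*RPA34*, whose product pairs with Rpa49 in a module that aids initiation and elongation, rose in 2 strains. Its normalized counts were 513, 539.8 and 481 in WT, 773, 789 and 852 in *jhd2Δ*, 665, 561 and 629 in *set1Δ*, 702, 716 and 718 in Flag-*SET1* and 787, 873 and 831 in Flag-*SET1-G990E*. The *set1Δ* libraries stood between WT and *jhd2Δ* without overlapping either. *RPA34* rose by 0.65 in *jhd2Δ* (adjusted p = 4.7e-07) and by 0.70 in Flag-*SET1-G990E* (adjusted p = 2.1e-07), and its change was 0.27 in *set1Δ* and 0.48 in Flag-*SET1*. Its partner *RPA49* was at 0.35 to 0.55 in the 4 strains, each with an adjusted p under the threshold but short of the fold.

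The stalk genes *RPA43*, whose product binds Rrn3, and *RPA14* showed changes of 0.01 to 0.44 and of 0.31 to 0.48. *RPA190*, the largest catalytic subunit, had a mean of 10192 ± 537 normalized counts in WT (SD, n = 3) and of 12145 ± 265 in *jhd2Δ*, a change of 0.25 ± 0.057. It was at 0.05 in *set1Δ* (adjusted p = 0.51). *RPA135*, the other large subunit, ranged from 0.18 to 0.33 and passed the adjusted p in *jhd2Δ* alone (0.00556). The enzyme genes therefore did not change in equal proportion.

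The polymerase I factors held the strongest response of the whole machinery, in *RRN11*. Its product is a subunit of the core factor, which with Rrn6 and Rrn7 marks the rDNA promoter. The normalized counts of *RRN11* were 71.8, 65.3 and 68.5 in WT, 272, 193 and 229 in *jhd2Δ*, 183, 144 and 194 in *set1Δ*, 180.1, 146 and 226 in Flag-*SET1* and 226, 238 and 194 in Flag-*SET1-G990E*. The WT libraries lay close together and the lowest mutant library had more than any of them, while *jhd2Δ*, *set1Δ* and Flag-*SET1* each spread widely.

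*RRN11* was 3.37-fold higher in *jhd2Δ* (log2 1.75 ± 0.17, adjusted p = 1.6e-07), 2.53-fold in *set1Δ* (log2 1.34 ± 0.18, adjusted p = 1.3e-05), 2.70-fold in Flag-*SET1* (log2 1.43 ± 0.18, adjusted p = 4.6e-06) and 3.21-fold in Flag-*SET1-G990E* (log2 1.68 ± 0.17, adjusted p = 2.5e-07). Among the 5619 features tested its change ranked 16, 31, 10 and 15 from the highest in these strains.

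*RRN3*, the factor that makes polymerase I competent to start, came next among the polymerase I factors in every mutant but *set1Δ*. Its normalized counts were 191, 156 and 215 in WT, 387, 373 and 370.3 in *jhd2Δ*, 284, 229 and 291 in *set1Δ*, 349, 379 and 353 in Flag-*SET1* and 445, 459.6 and 432 in Flag-*SET1-G990E*. All libraries of the 4 mutants lay above WT, and Flag-*SET1-G990E* lay above every other strain. *RRN3* was 2.01-fold, 1.92-fold and 2.38-fold higher in *jhd2Δ*, Flag-*SET1* and Flag-*SET1-G990E* (adjusted p = 2.5e-07, 1.4e-06 and 1.9e-08). In *set1Δ* the log2 change was 0.52 ± 0.11 (adjusted p = 0.00080), just short of the fold threshold.

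The partners of *RRN11* in the core factor moved less. *RRN6* had normalized counts of 385, 385 and 353 in WT, 551, 519.9 and 562 in *jhd2Δ*, 560.3, 465 and 541 in *set1Δ*, 576, 559 and 579.7 in Flag-*SET1* and 611, 564 and 569.9 in Flag-*SET1-G990E*. It rose by 0.61 in Flag-*SET1* and 0.63 in Flag-*SET1-G990E* (adjusted p = 3.8e-06 and 1.2e-06), and stood at 0.54 and 0.48 in *jhd2Δ* and *set1Δ*, again with every mutant library above WT.

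*RRN7*, related to the polymerase II factor TFIIB, had normalized counts of 77.8, 119 and 98.0 in WT, 145, 143 and 152 in *jhd2Δ*, 179, 134 and 166 in *set1Δ*, 156, 171 and 175 in Flag-*SET1* and 190.3, 137 and 127 in Flag-*SET1-G990E*. All mutant libraries lay above WT, but WT culture 1 was low and Flag-*SET1-G990E* culture 1 high within their strains. *RRN7* rose by 0.69 ± 0.16 in *set1Δ*, 0.76 ± 0.16 in Flag-*SET1* and 0.62 ± 0.16 in Flag-*SET1-G990E* (adjusted p = 0.00219, 0.00105 and 0.00401). Without WT culture 1 the change in *set1Δ* was 0.55 and that in Flag-*SET1-G990E* 0.48, and without Flag-*SET1-G990E* culture 1 the latter was 0.42, all under the fold threshold.

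The upstream activating factor was divided. *UAF30*, its only member that rose, had normalized counts of 67.8, 72.9 and 66.6 in WT, 149.7, 112 and 124 in *jhd2Δ*, 83.1, 83.2 and 97.5 in *set1Δ*, 92.7, 126 and 88.7 in Flag-*SET1* and 119, 106 and 94.8 in Flag-*SET1-G990E*. All mutant libraries lay above WT, with *set1Δ* the nearest by its mean. It rose by 0.89 ± 0.15 in *jhd2Δ* (adjusted p = 7.8e-05) and by 0.63 ± 0.15 in Flag-*SET1-G990E* (adjusted p = 0.00236), the latter at 0.54 without its culture 1. *RRN5*, *RRN9* and *RRN10*, the other listed subunits, were called in no strain. *RRN9* ranged from 0.05 to 0.14 and *RRN5* from -0.12 to 0.25, while *RRN10*, with 46 to 104 counts per library, reached 0.57 ± 0.17 in Flag-*SET1-G990E* (adjusted p = 0.0118).

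**Figure D3:**
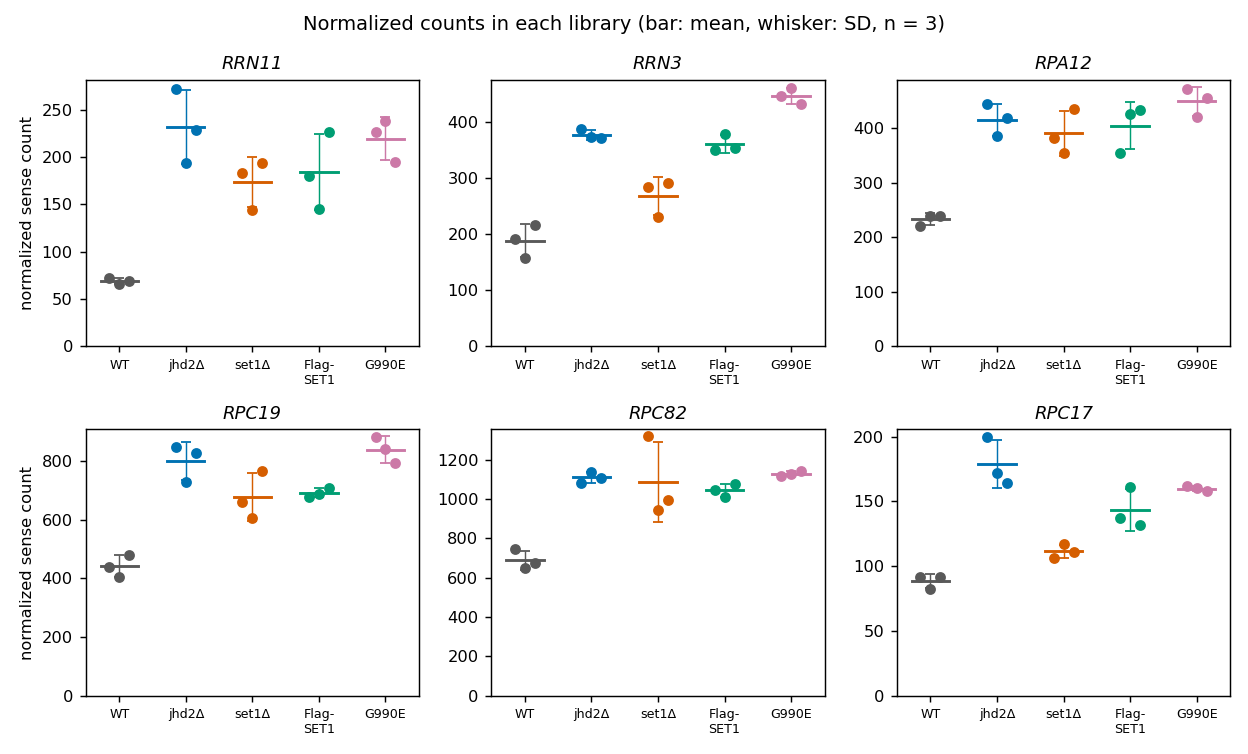
Normalized sense counts of 6 genes in each of the 3 libraries of WT, *jhd2Δ*, *set1Δ*, Flag-*SET1* and Flag-*SET1-G990E* (labelled G990E); horizontal bars are means and whiskers SD. *RRN11* lay at 65.3 to 71.8 in WT and at 144 or more in every mutant library, and *RPC17* in *set1Δ* lay between WT and *jhd2Δ*.

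The subunits used by both enzymes behaved differently from each other. Rpc19 and Rpc40 form the pair on which both enzymes are assembled. *RPC19* had normalized counts of 439, 404 and 480.4 in WT, 847, 727 and 826 in *jhd2Δ*, 661, 605 and 766 in *set1Δ*, 678, 687 and 708 in Flag-*SET1* and 882, 839.6 and 793 in Flag-*SET1-G990E*. All mutant libraries lay above WT. It rose by 0.86 ± 0.086 in *jhd2Δ*, 0.62 ± 0.088 in *set1Δ*, 0.65 ± 0.087 in Flag-*SET1* and 0.93 ± 0.086 in Flag-*SET1-G990E* (adjusted p = 2.5e-07, 2.4e-05, 1.3e-05 and 8.7e-08). The *set1Δ* value fell under the fold threshold without *set1Δ* culture 3 (0.52) or WT culture 2 (0.57). *RPC40*, more abundant per kilobase in WT (2134 against 1028), stayed between 0.14 and 0.28 and was not called.

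Of the polymerase III enzyme, 5 of 10 subunit genes rose in *jhd2Δ* and in Flag-*SET1-G990E*, and 2 of 10 in each of *set1Δ* and Flag-*SET1* (6.94%, 6.66%, 5.87% and 3.81% of all features were called up in these strains). *RPC82*, which with Rpc34 and Rpc31 forms the subcomplex that meets TFIIIB, rose in all 4 strains. It had normalized counts of 744, 651 and 675 in WT, 1084, 1140.4 and 1106 in *jhd2Δ*, 1321, 946 and 998 in *set1Δ*, 1047, 1011 and 1079 in Flag-*SET1* and 1118, 1127 and 1145 in Flag-*SET1-G990E*. All mutant libraries lay above WT, and *set1Δ* culture 1 stood apart from the other cultures of that strain. The change was 0.69 ± 0.091, 0.66 ± 0.092, 0.60 ± 0.092 and 0.71 ± 0.091 in *jhd2Δ*, *set1Δ*, Flag-*SET1* and Flag-*SET1-G990E* (adjusted p = 6.5e-06, 2.1e-05, 5.0e-05 and 4.2e-06). Without *set1Δ* culture 1 the *set1Δ* value was 0.49, and in Flag-*SET1* it was 0.58 without either WT culture 2 or Flag-*SET1* culture 3, all under the threshold. The partners *RPC34* and *RPC31* were not called in any strain, with changes of -0.05 to 0.26 and of 0.09 to 0.55.

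The stalk genes *RPC17* and *RPC25* both rose in *jhd2Δ* and Flag-*SET1-G990E*, and neither in *set1Δ*. *RPC17* had normalized counts of 91.7, 82.4 and 91.3 in WT, 199.7, 172 and 164 in *jhd2Δ*, 107, 117 and 111 in *set1Δ*, 137, 161 and 132 in Flag-*SET1* and 162, 160.1 and 158 in Flag-*SET1-G990E*. WT was lowest, *set1Δ* lay just above it and *jhd2Δ* was highest. *RPC17* rose by 1.01 ± 0.11 in *jhd2Δ* (adjusted p = 4.0e-07), 0.69 ± 0.11 in Flag-*SET1* (adjusted p = 8.4e-05) and 0.85 ± 0.11 in Flag-*SET1-G990E* (adjusted p = 3.4e-06). In *set1Δ* it was at 0.33 ± 0.12 (adjusted p = 0.0282), short of the fold.

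*RPC25* had normalized counts of 162, 149.6 and 152 in WT, 287, 291 and 245 in *jhd2Δ*, 191, 177 and 209 in *set1Δ*, 224, 222 and 244 in Flag-*SET1* and 274, 284 and 268 in Flag-*SET1-G990E*. Here too *set1Δ* lay between WT and *jhd2Δ* in every library. *RPC25* rose by 0.83 ± 0.089 in *jhd2Δ* and 0.84 ± 0.089 in Flag-*SET1-G990E* (adjusted p = 5.4e-07 and 4.6e-07), and was at 0.58 in Flag-*SET1* and 0.32 in *set1Δ*.

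*RPC37* and *RPC53* encode the dimer that acts in initiation and termination. *RPC37* had normalized counts of 187, 208 and 164 in WT, 303, 313 and 365 in *jhd2Δ*, 353, 298 and 332 in *set1Δ*, 263, 279.7 and 267 in Flag-*SET1* and 279, 405 and 338 in Flag-*SET1-G990E*. Here *set1Δ* overlapped *jhd2Δ*, unlike the stalk genes. *RPC37* rose by 0.81 ± 0.12 in *jhd2Δ*, 0.81 ± 0.13 in *set1Δ* and 0.87 ± 0.12 in Flag-*SET1-G990E* (adjusted p = 3.1e-05, 5.7e-05 and 1.3e-05), and was at 0.53 in Flag-*SET1*.

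*RPC53* had normalized counts of 633, 492 and 586 in WT, 907, 899.7 and 915 in *jhd2Δ*, 765, 627 and 759 in *set1Δ*, 814, 816 and 849.6 in Flag-*SET1* and 930.4, 971 and 923 in Flag-*SET1-G990E*. The *set1Δ* libraries overlapped WT, and those of the other mutants did not. It rose by 0.67 ± 0.082 in *jhd2Δ* and 0.72 ± 0.081 in Flag-*SET1-G990E* (adjusted p = 2.4e-06 and 9.2e-07). Like the large subunits of polymerase I, those of polymerase III were not called. *RPO31*, the largest subunit, ranged from 0.30 to 0.38, and *RET1*, the other, from 0.10 to 0.24. *RPC11*, the counterpart of *RPA12* in polymerase III, was at 0.55 ± 0.11 in *jhd2Δ* and 0.20 in Flag-*SET1* and was not called.

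Of the TFIIIC, TFIIIB and *MAF1* genes, 0 of 9 were called in any comparison with WT, where 3.81% to 6.94% of all features were called up and 2.71% to 5.32% down, so that a count of 0 among so few genes is near that of features at large. At an unadjusted p under 0.05, 3, 2, 2 and 3 of them were higher and 3, 2, 2 and 2 lower in *jhd2Δ*, *set1Δ*, Flag-*SET1* and Flag-*SET1-G990E*, and DESeq2 called 0. Over all features 24.9%, 25.8%, 21.9% and 25.3% were higher by that rule and 21.4% to 27.0% lower, so these counts too were near the background. Their median log2 change was between 0.03 and 0.11, against 0.32 to 0.63 for the 10 polymerase III subunits. *TFC6*, the TFIIIC gene with PAC, was the highest of them in Flag-*SET1-G990E*, with 358, 396 and 363 normalized counts against 273, 246 and 268 in WT (0.50 ± 0.089, adjusted p = 0.00013). It was at 0.41 in *jhd2Δ* and 0.06 in *set1Δ*.

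*TFC4* was at 0.20 to 0.29 in the 4 strains, *TFC1* at 0.03 to 0.11 and *TFC8* at -0.04 to 0.16. *TFC3*, whose product reads the B box inside transfer RNA genes, lay below WT in all 4 strains, from -0.24 to -0.14, and *TFC7* did so from -0.27 to -0.03. *BRF1* of TFIIIB was at 0.20 to 0.39 and *BDP1* at 0.02 to 0.11.

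*MAF1*, the repressor of polymerase III, was the member with the lowest values in 3 of 4 comparisons. It had normalized counts of 703, 688 and 714 in WT, 664, 592 and 572 in *jhd2Δ*, 556, 619 and 556 in *set1Δ*, 559, 534 and 564 in Flag-*SET1* and 571, 455 and 577 in Flag-*SET1-G990E*. Every mutant library lay below every WT library. The change was -0.20 ± 0.082 in *jhd2Δ* (adjusted p = 0.0506), -0.28 ± 0.083 in *set1Δ* (adjusted p = 0.0108), -0.34 ± 0.083 in Flag-*SET1* (adjusted p = 0.00322) and -0.40 ± 0.082 in Flag-*SET1-G990E* (adjusted p = 0.00070), under the fold threshold each time.

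Averaged over each list, the level of the subunit genes separated the mutants from WT in every library. The mean log2 level of the 10 polymerase III subunits relative to the WT mean was -0.03 to 0.04 in WT libraries, 0.55 to 0.57 in *jhd2Δ*, 0.27 to 0.42 in *set1Δ*, 0.38 to 0.42 in Flag-*SET1* and 0.51 to 0.63 in Flag-*SET1-G990E*. For the 8 polymerase I factors the ranges were -0.01 to 0.01, 0.53 to 0.77, 0.31 to 0.47, 0.55 to 0.64 and 0.62 to 0.81 in the same order. The 9 genes of TFIIIC, TFIIIB and *MAF1* stayed between -0.02 and 0.10 in all 15 libraries. Within *set1Δ*, culture 2 gave the lowest value for 25 of the 36 genes.

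Of 8 genes that mark slow or post-diauxic growth, 5 fell in each of *jhd2Δ*, Flag-*SET1* and Flag-*SET1-G990E*, 1 (*CTT1*) fell in *set1Δ*, and 0 rose. Of all features, 5.27%, 3.88%, 5.32% and 2.71% were called down in these strains. With the adjusted p alone, 6 markers were lower in *jhd2Δ*, 7 in *set1Δ*, 5 in Flag-*SET1* and 7 in Flag-*SET1-G990E*. By that rule 1316, 1138, 940 and 1262 of the 5619 features were lower. The markers (*HSP12*, *HSP26*, *CTT1*, *SSA3*, *GPH1*, *HXK1*, *CIT1* and *ADH2*) summed to between 42138.5 and 49296 normalized counts in WT libraries, 19639.9 and 21732 in *jhd2Δ*, 28081 and 42666 in *set1Δ*, 17984.5 and 19854 in Flag-*SET1* and 16618 and 17531 in Flag-*SET1-G990E*. *HXK1* and *GPH1*, the most abundant of the 8 in WT (means of 20674 and 15618.5), weighed most in these sums. The highest *set1Δ* library lay within the WT range of the sums. By the mean log2 level of the 8 markers it lay below every WT library (-0.255 against -0.1 to 0.055). *HSP26* was at 0.17 in *jhd2Δ* and 0.09 in *set1Δ*, and *SSA3* at 0.15 in Flag-*SET1*. In *set1Δ*, culture 2 was nearest to WT by the mean log2 level of these markers and also by that of the polymerase genes (0.198). In each of the other mutants the nearest culture differed between these means. By the markers it was culture 3 in *jhd2Δ* (-0.561), culture 1 in Flag-*SET1* (-0.678) and culture 2 in Flag-*SET1-G990E* (-0.839). By the polymerase genes it was culture 2 in *jhd2Δ* (0.403), culture 2 in Flag-*SET1* (0.337) and culture 3 in Flag-*SET1-G990E* (0.437). The part of growth state in the polymerase gene levels was not tested, and with bulk RNA a change in RNA per cell cannot be told apart from a change in the mix of cells.

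**Figure D4:**
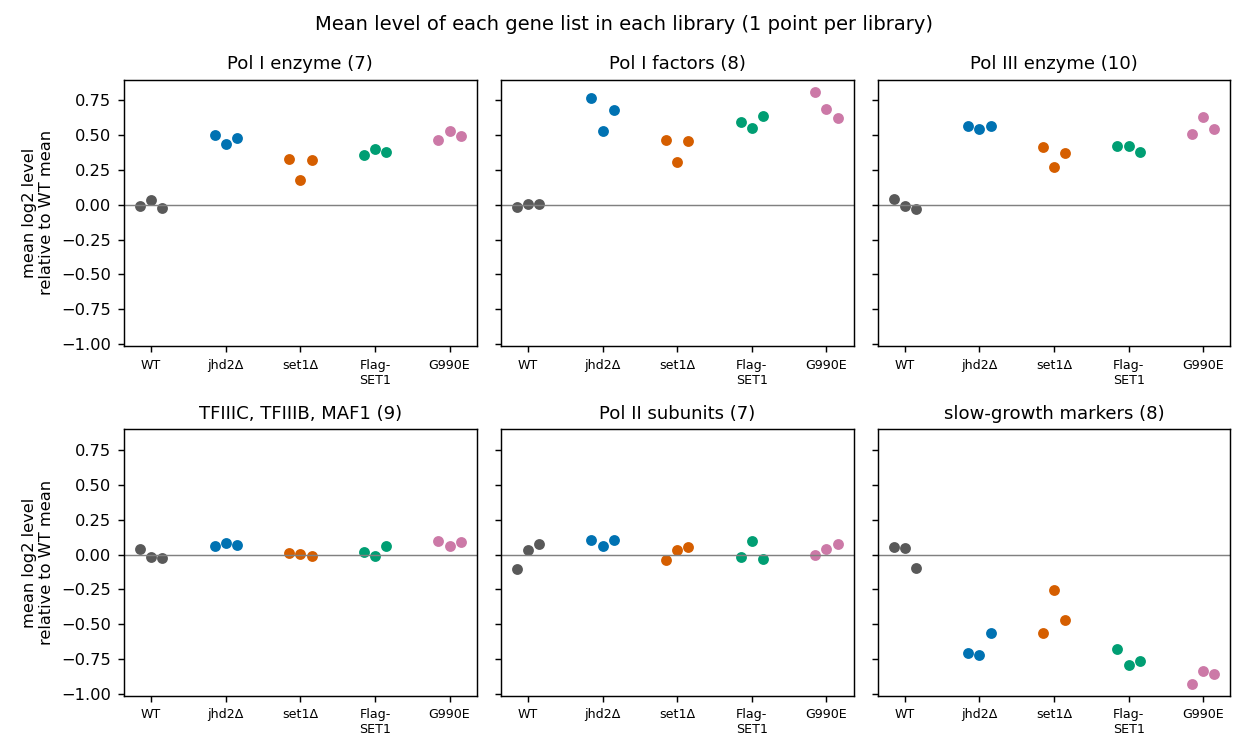
Mean log2 level of 6 gene lists in each library relative to the WT mean (1 point per library; number of genes in brackets; G990E is Flag-*SET1-G990E*). The polymerase I and III lists lie above WT in every mutant library, TFIIIC, TFIIIB and *MAF1* and the polymerase II subunits stay near 0, and the mean of the slow-growth markers lies below WT.

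The direct comparison of *set1Δ* with *jhd2Δ* asked where loss of the methyltransferase and of the demethylase differed. *RPC17* was the only member called, at -0.68 ± 0.11 in *set1Δ* relative to *jhd2Δ* (adjusted p = 6.4e-05), with 8.31% of all features called in either direction. It was not called by glmTreat. With the adjusted p alone, 14 members were lower in *set1Δ* (as were 19.5% of all features) and 0 higher (20.8% of all features were). At an unadjusted p under 0.05, 1 was higher (24.8% of all features), and the median over the 36 genes was -0.11. After *RPC17* these differences were largest in *UAF30* (-0.54 ± 0.15), *RPC25* (-0.51 ± 0.088) and *RRN3* (-0.49 ± 0.099), whereas *RPC82* and *RPC37* differed by -0.03 and 0.00. Leaving out 1 culture gave 1 to 3 called members, all lower in *set1Δ* and *RPC17* among them each time: 3 without *jhd2Δ* culture 2 and 2 without *jhd2Δ* culture 3, *set1Δ* culture 2 or *set1Δ* culture 3.

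Flag-*SET1-G990E* was compared with Flag-*SET1* to ask what the substitution added to overexpression. No member was called (0.231% of all features were), by edgeR or by DESeq2, although 9 members had an unadjusted p under 0.05 and all 9 were higher in Flag-*SET1-G990E* (8.13% of all features were higher and 7.53% lower by this rule). With the adjusted p alone, *TFC6* was higher by 0.36 ± 0.089 (adjusted p = 0.0426; 0.872% of all features were higher by this rule). *RPC37*, *RRN3* and *RPC19* were at 0.34 ± 0.12, 0.31 ± 0.093 and 0.28 ± 0.083.

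Members with PAC had higher median changes than those without, and the same order was seen over all tested genes. In *jhd2Δ* the median log2 change was 0.47 over the 22 members with PAC and 0.15 over the 14 without. In Flag-*SET1-G990E* it was 0.56 and 0.15, in *set1Δ* 0.31 and 0.08, and in Flag-*SET1* 0.37 and 0.16. The 14 without PAC included every TFIIIC, TFIIIB and *MAF1* gene but *TFC6*, so PAC and role cannot be told apart in these medians. The remaining genes without PAC were *RPA12*, *RRN7*, *RPC11* and *RPC17*, at 0.83, 0.57, 0.55 and 1.01 in *jhd2Δ*, and *RRN5* and *RRN9*, at 0.03 and 0.14. The shares of members called up were 40.9% with PAC and 14.3% without in *jhd2Δ* and 45.5% and 21.4% in Flag-*SET1-G990E*, but lay closer in *set1Δ* (18.2% and 14.3%) and in Flag-*SET1* (22.7% and 21.4%). Over all tested genes with a searched promoter, the corresponding medians were 0.18 over 916 genes with PAC and -0.03 over 4594 without in *jhd2Δ*, and 24.2% and 3.64% of them rose. These shares were 13.8% and 4.4% in *set1Δ*, 14.1% and 1.83% in Flag-*SET1* and 23.4% and 3.44% in Flag-*SET1-G990E*. The longer form marked higher values still over all genes, with a median of 0.52 and 47.2% of 229 genes called up in *jhd2Δ*. Several members departed from this: *RPA12*, *RRN7* and *RPC17* rose in at least 3 strains with neither motif in the window, and *RPA190* and *RPA135*, each with 2 PAC matches and at least 1 RRPE core match, were called in no strain. A motif match describes the sequence only, and binding was not measured.

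**Figure D5:**
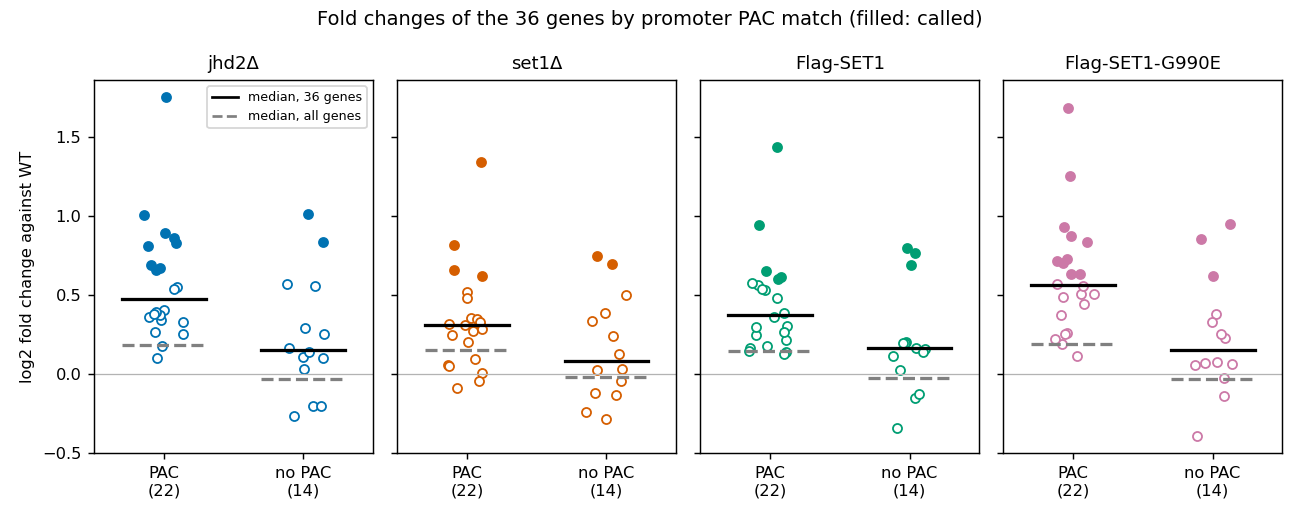
Log2 fold change against WT of the 36 genes in each mutant strain, split by the presence of PAC in the 250 bases before the start codon; filled points were called, black lines are medians of these genes and dashed grey lines medians of all tested genes. The black line is higher with PAC than without in each strain (0.47 against 0.15 in *jhd2Δ*), and so is the dashed line (0.18 against -0.03). The genes without PAC include every TFIIIC, TFIIIB and *MAF1* gene but *TFC6*.

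The RNA level itself bore little relation to the size of the response. Over the 36 genes, Spearman's rho between the mean level per kilobase in the strains compared and the log2 change was -0.11 in *jhd2Δ*, -0.09 in *set1Δ*, -0.13 in Flag-*SET1* and -0.10 in Flag-*SET1-G990E*, close to the values over all 5619 features (-0.12 to -0.13). These correlations are across genes that share libraries and are given as a description.

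Genes outside the set were read for comparison. The 7 subunits found in polymerase II alone were called in no strain, with medians of 0.03 to 0.05. Of all features, 3.81% to 6.94% were called up and 2.71% to 5.32% down, so 0 among so few genes is near features at large. At an unadjusted p under 0.05, 3, 1, 0 and 3 of them were higher and none lower in *jhd2Δ*, *set1Δ*, Flag-*SET1* and Flag-*SET1-G990E*, and DESeq2 called 0. By that rule 24.9%, 25.8%, 21.9% and 25.3% of all features were higher and 21.4% to 27.0% lower. Of the 5 subunits common to all 3 polymerases, *RPC10* rose by 0.60 ± 0.15 in Flag-*SET1* and 0.85 ± 0.14 in Flag-*SET1-G990E*, and the other 4 were not called. Of all features, 3.81% and 6.66% were called up in these 2 strains. With the adjusted p alone, 4, 2, 4 and 5 of the 5 were higher in *jhd2Δ*, *set1Δ*, Flag-*SET1* and Flag-*SET1-G990E*. By the adjusted p, 21.5%, 22.1%, 18.0% and 22.2% of all features were higher. The medians of the 5 were 0.31, -0.05, 0.31 and 0.36. Among 11 further factors, *BUD27*, a prefoldin-like protein needed to assemble the polymerases, rose in all 4 strains, from 0.70 to 0.98. *KNS1*, a kinase that acts on Rpc53, fell by 0.68 in Flag-*SET1-G990E*. *PZF1*, which encodes the 5S-specific factor TFIIIA, was at 0.48 to 0.53 in the 4 strains and was not called.

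Of the factors known to bind these motifs, *TOD6*, which encodes a repressor that binds PAC, rose strongly in every strain. Its normalized counts were 205, 193 and 199.8 in WT, 819, 753 and 768 in *jhd2Δ*, 401, 322 and 376 in *set1Δ*, 541, 632 and 532 in Flag-*SET1* and 772, 702 and 715 in Flag-*SET1-G990E*. All mutant libraries lay above WT, with *set1Δ* the nearest to it. The change was 1.97 ± 0.088 in *jhd2Δ*, 0.88 ± 0.094 in *set1Δ*, 1.51 ± 0.090 in Flag-*SET1* and 1.87 ± 0.088 in Flag-*SET1-G990E* (adjusted p = 2.4e-11, 1.3e-06, 2.1e-09 and 4.4e-11). In *set1Δ* relative to *jhd2Δ* it was at -1.09 ± 0.083 (adjusted p = 2.6e-08). Its paralogue *DOT6*, the RRPE-binding repressor *STB3* and the activator *SFP1* were called in no strain. With the adjusted p alone, 2 of these 4 factors were higher and 1 lower in *set1Δ* (1241 and 1138 of the 5619 features were). Mean normalized counts in WT and *set1Δ* were 1891 and 2538 for *DOT6*, 573 and 587 for *STB3*, and 671 and 535 for *SFP1*.

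Of 4 polymerase III transcripts read in the count table, 2 fell in *set1Δ*, where 2.71% of all features did. *SCR1*, the RNA of the signal recognition particle, had been set apart by the authors for its high counts and was not used here. *RPR1*, the RNA of RNase P, had normalized counts of 13248, 13889 and 16336 in WT, 11682, 8788 and 9165 in *jhd2Δ*, 7171, 7198 and 8262 in *set1Δ*, 11282, 11356 and 12728 in Flag-*SET1* and 13551, 13019 and 11127 in Flag-*SET1-G990E*. It fell by 0.94 in *set1Δ* (adjusted p = 2.4e-06) and was at -0.55 in *jhd2Δ*. *SNR52*, a small nucleolar RNA with 28 to 79 counts per library, fell by 0.68 in *set1Δ* (adjusted p = 0.0189). *SNR6*, the U6 RNA, was at -0.72 ± 0.31 in *set1Δ* (adjusted p = 0.0747), and *RNA170* was at 0.10 ± 0.22 (adjusted p = 0.729). These too had few counts per library, 34 to 149 for *SNR6* and 26 to 62 for *RNA170*. How well the libraries recovered such short RNAs was not tested, so the counts do not measure the output of polymerase III. Transfer RNAs were not analysed here.

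The neighbours of the 13 responsive genes were mostly not called. Over the nearest features of the count table on either side (26 neighbours), 4 were called up in some strain and 1 down. In single strains, 3.81% to 6.94% of all features were called up and 2.71% to 5.32% down. The share of all features called in any strain was not counted, so the neighbours cannot be set against it. *DBP7*, transcribed away from *RPC37* across a gap of 397 bases and encoding a helicase of ribosome assembly, was at 1.36, 0.80, 0.93 and 1.29 in *jhd2Δ*, *set1Δ*, Flag-*SET1* and Flag-*SET1-G990E* and rose in all 4. *LTV1*, a factor in small-subunit export that diverges from *RPC25* across 299 bases, was at 0.88, 0.77, 0.48 and 0.73 and rose in all but Flag-*SET1*. *RRS1*, a ribosome assembly gene 256 bases upstream of *UAF30* on the same strand, rose by 0.78 to 1.08. *NOP9*, upstream of *RPC17*, rose in *jhd2Δ* (0.72) and Flag-*SET1-G990E* (0.66). *ACH1*, downstream of *RRN6*, fell by 0.75 in Flag-*SET1* and by 0.59 in Flag-*SET1-G990E*. For *RRN11*, neither *CAT2* (-0.39 to 0.04), divergent across 1020 bases, nor *PRP39* (-0.17 to 0.28), lying 6880 bases downstream, was called. No feature of the table overlapped any of the 36 genes.

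Antisense reads over these genes were few. Of the 36, 6 (*BRF1*, *RPA43*, *RPC11*, *RPC53*, *RRN11* and *RRN9*) were in the authors' list of antisense features under 10 counts, and 11 passed the filter on low counts, the 30 with antisense values having 0 to 52 counts per library. *RRN6* was called in *set1Δ*, with 12.4% of the 2640 antisense features tested called there. It had 17, 18 and 19 antisense counts in *set1Δ*, 8, 10 and 8 in WT, 5, 3 and 4 in *jhd2Δ*, 6, 6 and 4 in Flag-*SET1* and 10, 12 and 10 in Flag-*SET1-G990E*. The *set1Δ* libraries lay above all others. The change was 1.51 ± 0.34 against WT (adjusted p = 0.00054) and 2.48 ± 0.41 against *jhd2Δ* (adjusted p = 8.1e-07; 13.7% of antisense features called). A filter of 50 counts in 3 libraries removed the gene.

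*TFC6* antisense was lower in Flag-*SET1*, with 26, 28 and 24 counts against 52, 44 and 46 in WT (-0.72 ± 0.21, adjusted p = 0.027; 3.52% of antisense features called). DESeq2 did not call it (adjusted p = 0.0862), and the call was lost without WT culture 1 (-0.60, adjusted p = 0.174), WT culture 3 (-0.76, 0.0502), Flag-*SET1* culture 1 (-0.73, 0.1004) or Flag-*SET1* culture 3 (-0.61, 0.214). In *jhd2Δ*, Flag-*SET1-G990E* and the comparison of Flag-*SET1-G990E* with Flag-*SET1*, 0 members were called on the antisense strand (6.21%, 6.74% and 0.833% of antisense features), by edgeR or DESeq2. At an unadjusted p under 0.05, 1, 2 and 3 of the 11 members tested passed in these comparisons, as did 20.0%, 20.3% and 11.1% of antisense features.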

How the data were processed

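RNA from 15 cultures (5 strains, 3 independent cultures each) was sequenced by the authors as stranded total RNA libraries after ribosomal RNA removal. The deposited values were whole-number counts per gene and strand, made by the authors with Novoalign 2.8.1 on sacCer3 and USeq, counting each pair that overlapped a gene by at least 1 base, and features under 10 counts or with the very highest counts had been set apart. The deposited gene lengths, another kind of value, gave levels per kilobase. The authors' own columns (log ratios, adjusted p, FPKM and regularized logs) were not used, and 0 count columns lacked a sample.

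Counts were tested with edgeR 4.0.16 in R 4.3.3 (glmQLFit, glmQLFTest), with TMM scaling, filterByExpr at a minimum count of 10, and all 15 libraries in 1 fit. This left 5619 sense and 2640 antisense features, over which p-values were adjusted (Benjamini-Hochberg). The SE of a log2 change was its size divided by the root of the F statistic. Normalized counts were counts divided by TMM-scaled relative library size. The script was tested on simulated counts. Alternatives were DESeq2 1.42.0, RLE size factors, no filter, at least 50 counts in 3 libraries, only the strains compared, a replicate block, glmTreat, sense library sizes for antisense counts, and each library left out. Counting precision was limited by 6903094 to 8947346 sense counts per library.

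Promoters (250 bases before the start codon) were read from the RefSeq R64 genome for 5585 of 5604 matched genes whose start and end were the same in both annotations. Motif letters were searched exactly. The genes, the comparison lists and the tests were chosen with earlier results of these data known. Any member could be named, those called against WT were given in every library, and other genes were those of the listed groups, *SET1*, *JHD2* and the nearest features beside a called member. Same-numbered cultures of different strains did not deviate together throughout (r from -0.23 to 0.34 on sense counts). Their median r was 0.114, against -0.035 for other pairs, so some shared deviation was present. The numbers were not taken as pairs in the main fit, and a replicate block was run as an alternative.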

Additional observations from a re-analysis of the deposited data

Results flagged for a closer look

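The effects of *set1Δ* and *jhd2Δ*, each against the same WT cultures, were called different at 3 genes by the direct contrast of these strains. These were among the 36 and the motif-binding factors, with the fold threshold applied. With the adjusted p alone, 14 of the 36 were lower in *set1Δ* on the sense strand (19.5% of all features were). *RPC17*, which encodes a stalk subunit of polymerase III, was at -0.68 on the log2 scale in *set1Δ* relative to *jhd2Δ*. It was not called by glmTreat. *TOD6*, which encodes a repressor that binds the PAC element, was at -1.09. Antisense reads over *RRN6*, a core factor gene of polymerase I, were at 2.48 in the same contrast, at 19 or fewer antisense counts per library. Groups of 3 cultures were too small for a search for single outlying libraries.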

How the results depend on the processing

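DESeq2, RLE size factors, no filter, the stricter filter and the replicate block left the sense calls of the 36 genes as given in every comparison, and fitting only the strains compared gave 12 in *jhd2Δ* in place of 11. Testing the 1.5-fold bound itself lowered the counts to 6 (*jhd2Δ*), 1 (*set1Δ*), 2 (Flag-*SET1*), 5 (Flag-*SET1-G990E*) and 0 (*set1Δ* against *jhd2Δ*). Leaving out 1 library gave 11 to 13, 5 to 8, 8 to 10, 12 to 15 and 1 to 3 in the same order and 0 to 0 for Flag-*SET1-G990E* against Flag-*SET1*. Of 39 sense calls, 33 held in all 15 such fits, and no value reversed. With the replicate block the counts were 11, 6, 8, 13, 1 and 0, and on the antisense strand 0, 1, 1, 0, 1 and 0, so that it changed no call. Same-numbered cultures had correlations of -0.23 to 0.34 (sense, 16 of 30 over 0.1) and of -0.04 to 0.07 (antisense). On the antisense strand the stricter filter gave 0 members in *set1Δ*, in Flag-*SET1* and in *set1Δ* against *jhd2Δ*, since it removed the genes concerned. DESeq2 and glmTreat gave 0 in Flag-*SET1*, and no filter gave 1 in Flag-*SET1-G990E* (*RPC19*). Leaving out 1 library gave 0 to 2 there, 0 to 1 in Flag-*SET1*, and 1 to 1 in *set1Δ* and in *set1Δ* against *jhd2Δ*. The slow-growth markers, the 1 strain per genotype and the removal of ribosomal RNA limit what the levels of these genes stand for.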
